A study of Mus musculus with 14 samples.

Results

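The comparison described here set mouse hepatocytes after 1 day in BM culture (BM 1D) against freshly isolated hepatocytes (FH). It used 4 of the 14 RNA-seq libraries of the series, 2 in each group, picked by their labels. The comparison itself was chosen with earlier results of these data known. It was read across all 14100 genes that had enough counts to be tested. The series' title places the work in the maintenance of hepatocyte function in vitro and mechanical tension-induced activation of YAP, and BM 1D is its earliest cultured sample. All libraries came from liver of C57BL/6 mice by the labels, and neither FH nor BM 1D carried the Yap deletion of the groups marked YAP-/-. The labels do not spell out BM. They also leave it unsaid whether a group's 2 libraries are different mice or different dishes, and p-values therefore measure only the spread between these libraries, which may be technical. A pair of other groups is used below for reference only, BM 3D (the same culture at 3 days, 2 libraries) and FH YAP-/- (fresh hepatocytes without Yap, 2 libraries).

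A hepatocyte in the liver is held by its neighbours and by a thin, soft matrix, and sits between blood sinusoids and bile canaliculi. Isolation with enzymes cuts these contacts, and plating offers a flat and stiff surface in their place. Cells then attach through integrins, transmembrane receptors for matrix proteins that recruit adaptor proteins such as zyxin and vinculin and connect to actin filaments. Polymerisation of actin releases the coactivator MRTF, which joins the transcription factor SRF on genes of the cytoskeleton. Isolation and plating are also known to start wound-like, oxidative and inflammatory responses in hepatocytes, and hepatocytes in culture are known to lose much of their specialised metabolism. The gene lists below cover attachment, stress, metabolism, hepatocyte identity and other cell types.

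The libraries held 18138872 and 15501005 counts in BM 1D and 19353371 and 19494797 counts in FH. Levels are given as CPM (each gene's share of a library's counts) scaled by TMM, which evens out differences in the make-up of the libraries, with library 1 before library 2. The FH libraries were close to each other, with 0.986% of 10753 genes differing by at least 2-fold. The BM 1D libraries stood further apart, with 14.7% of 11331 genes differing by at least 2-fold, 1263 of them higher in library 2 and 400 higher in library 1. The 20 most abundant genes took 29.2 and 29% of the counts in FH and 17.7 and 18.2% in BM 1D. The TMM factors were 0.65 and 0.648 in FH and 1.22 and 1.24 in BM 1D, and scaling by total counts instead raised the log2 fold change of the median gene by 0.92. With 2 libraries a group, the spread was estimated in 1 model over all 7 groups of the series (7 residual degrees of freedom), and each log2 fold change is given with its standard error (SE). Genes with 1 to 10 counts in all in 1 of the groups are given as a ratio of counts scaled by library size, with its 95% exact interval, which covers counting error only. Where a list holds genes with no counts in a group, its median is given also with those genes at a bound from 3 counts per library (the median at bounds).

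By edgeR's quasi-likelihood test with Benjamini-Hochberg adjustment, 43.8% of the 14100 genes passed an adjusted p of 0.05 between BM 1D and FH, 23.6% higher and 20.2% lower in BM 1D. The count of a list is read against these shares. Because the lists were chosen with earlier results of these data known, an excess over these shares is a description and no test. On total counts 7064 genes were higher and 1351 lower, against 3328 and 2842 with TMM. The median log2 fold change of all genes tested was 0.17 with TMM and 1.08 on total counts. Between BM 3D and BM 1D, 5.26% of genes passed, 3.67% higher and 1.6% lower at day 3. Levels at day 3 are given only where that test was passed, and not for every named gene that passed it. Dsg1c, Fas, Cgn, Fhl1 and Myl9 (higher at day 3) and G6pdx (lower) are among those that passed without their day 3 levels being given. Those day 3 calls rest on the spread of all groups: a fit of the BM 1D and BM 3D libraries alone called 0 genes in edgeR (1819 at an unadjusted p under 0.05), and the DESeq2 Wald test on all libraries called 1736.

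Both groups were hepatocytes by their markers. Albumin, the main protein of plasma, was at 155088 and 149910.1 CPM in FH and 52007 and 58753 CPM in BM 1D, and its difference did not pass the test (log2 fold change -1.46 ± 1.08, adjusted p = 0.296). Of 12 hepatocyte-defining markers 10 fell and 2 did not pass, and none was absent from BM 1D. Leaving out 1 of the 4 libraries at a time left 4 to 6 of these markers lower. Markers of other liver cells were present at low levels in both groups. The summed level of 14 Kupffer cell and macrophage markers was 158 and 108 CPM in FH and 154 and 375 CPM in BM 1D, where 313 CPM of library 2 was the lysosomal gene Cd68 alone. Of those markers 6 fell, among them Vsig4 (11.4 and 9.34 CPM in FH, 0.406 and 2.4 CPM in BM 1D) and Cd5l (28.5 and 21.5 CPM in FH, 1.17 and 6.2 CPM in BM 1D), Cd68 rose and 7 did not pass. Summed levels of 15 sinusoidal endothelial markers were 215 and 170 CPM in FH and 119 and 244 CPM in BM 1D, with 4 lower and 11 not passing. For 15 stellate cell and fibroblast markers they were 138 and 115 CPM in FH and 49.7 and 130 CPM in BM 1D, with 5 lower and 10 not passing. Clec4g, a lectin of sinusoidal endothelium, was at 12.3 and 8.55 CPM in FH and at 0 and 0.26 CPM in BM 1D. On total counts 4 of the hepatocyte, 3 of the Kupffer cell, 1 of the endothelial and 1 of the stellate cell markers were lower, and 4 endothelial markers were higher. With any of the 4 libraries left out, 3 to 5 Kupffer cell, 1 to 4 endothelial and 1 to 3 stellate cell markers were lower. The T and B cell markers of the leukocyte list had too few counts to be tested. In bulk libraries fewer cells of a type and less RNA per cell cannot be told apart.

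**Figure D1:**
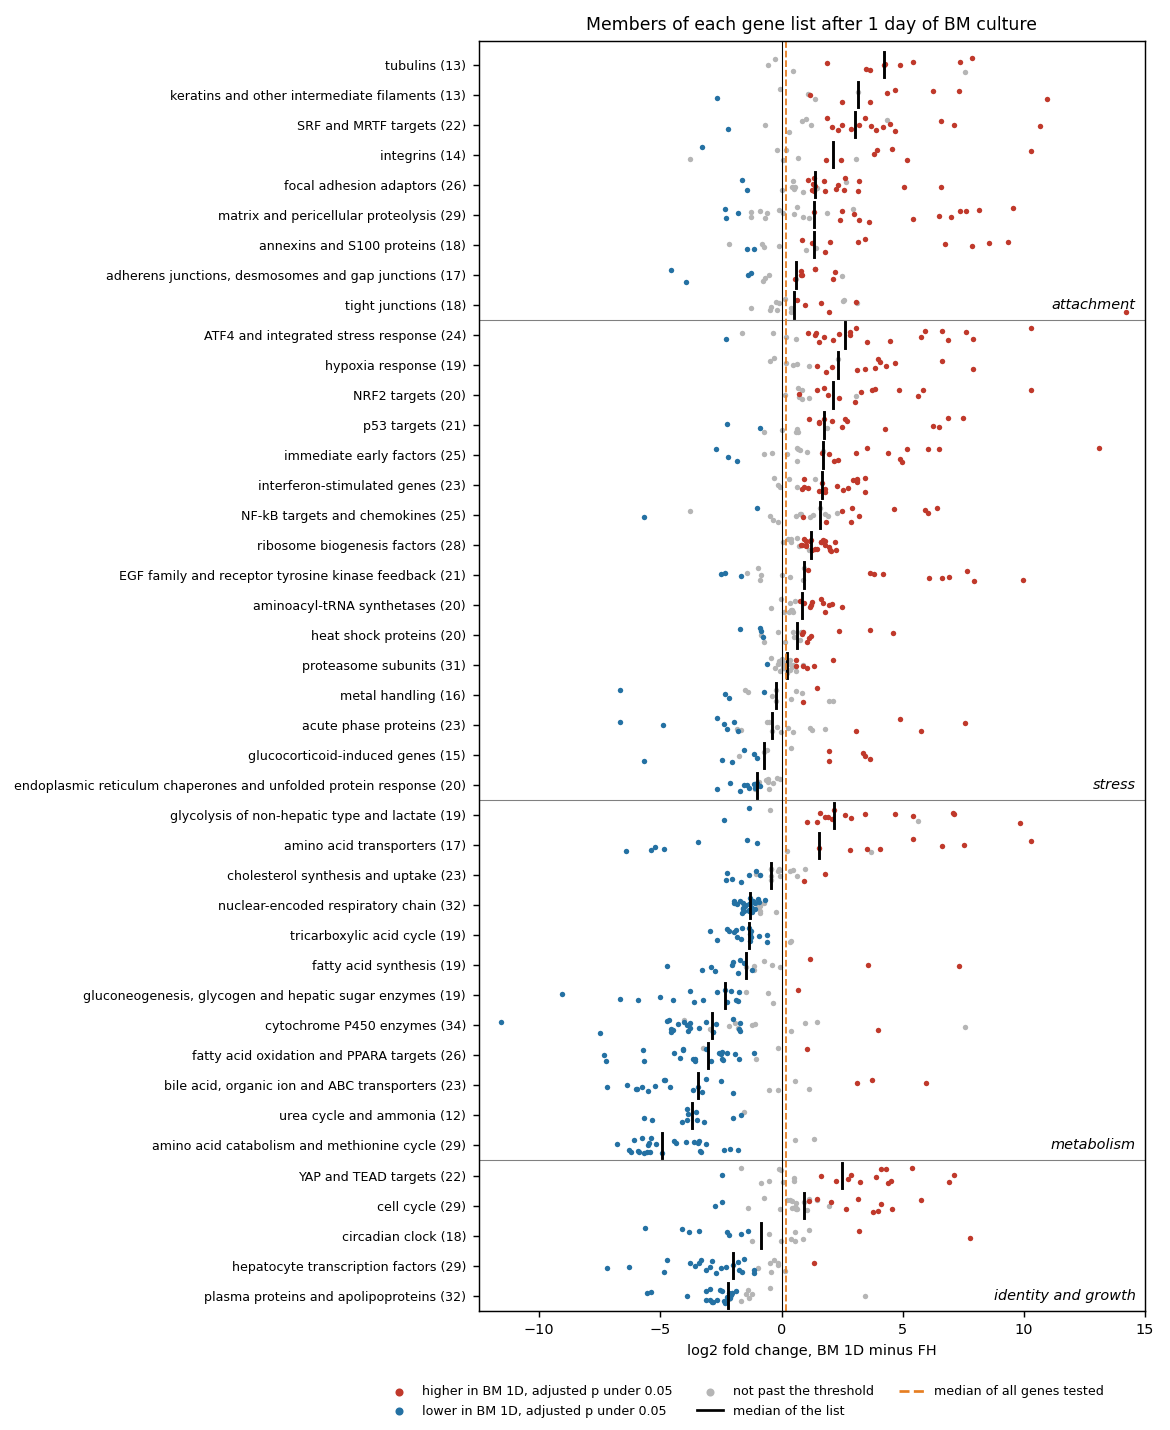
Each point is 1 gene of a list and the x axis gives its log2 fold change in BM 1D minus FH, with red for higher, blue for lower and grey for not past the threshold; black bars are list medians, the dashed line is the median of all genes tested (0.17), and the number of tested members stands in brackets. The medians of tubulins, keratins and SRF targets lie furthest to the right, and those of amino acid catabolism and the urea cycle furthest to the left. With a library left out, both the order on the right and the lists that stand there change. For example, without FH library 1 the median is 3.19 for hypoxia and 3.0 for SRF targets.

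Transcripts of receptors, adaptors and filaments of attachment rose in large part during the first day. Of 14 integrin genes 7 rose, 1 fell and 6 did not pass, with a median log2 fold change of 2.14 that was 1.31 without BM 1D library 2. Itga3, an α subunit that binds laminin, was at 7.0 and 8.39 CPM in FH and 197 and 164 CPM in BM 1D, a log2 fold change of 4.55 ± 0.47 (adjusted p = 5.2e-05). Here and below, most genes were named for a large change without overlap between groups, so such a gap is no result in itself. Itga6, the other laminin-binding α subunit of epithelia, went from 1.51 and 1.58 CPM to 68.8 and 44.5 CPM (5.19 ± 0.74, adjusted p = 0.000307). Itgav, the α subunit of the vitronectin receptors, already stood at 46.3 and 46.5 CPM in FH and rose to 279 and 224 CPM (2.44 ± 0.32). The collagen receptor subunit Itga1 took the opposite course, from 40.9 and 46.1 CPM in FH to 3.93 and 5.0 CPM in BM 1D (-3.29 ± 0.44, adjusted p = 0.000208), and was higher again at day 3, at 13.3 and 20.6 CPM (adjusted p = 0.0278). Itgb1, the β subunit that pairs with all of these, was the most abundant and did not pass, at 355 and 357 CPM in FH and 652 and 473 CPM in BM 1D (adjusted p = 0.0967).

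Of 26 adaptors of focal adhesions 16 rose, 2 fell and 8 did not pass (median 1.36). Filamin A (Flna), which cross-links actin and binds integrin tails, was at 8.91 and 5.86 CPM in FH and 648 and 751 CPM in BM 1D, a log2 fold change of 6.57 ± 0.76 (adjusted p = 9.14e-05). Tes rose from 2.62 and 3.32 CPM to 104 and 96.1 CPM (5.07 ± 0.91). Zyxin (Zyx), which moves into adhesions under tension, rose from 27 and 29 to 277 and 229 CPM (3.17 ± 0.38, adjusted p = 0.000108), and Vasp, an actin elongation factor that binds zyxin, from 7.87 and 7.2 to 73.8 and 63.9 CPM (3.19 ± 0.35). In each of these 4 genes the lowest BM 1D library was several times the highest FH library, which the choice of genes favoured. The α-actinin gene Actn1 and the integrin-linked kinase partner Lims1 rose by less, with log2 fold changes of 2.59 ± 0.28 and 2.62 ± 0.29.

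Of 22 targets of SRF and MRTF 15 rose, 1 fell and 6 did not pass, and the median was 3.02 (2.67 at bounds). The cytoplasmic actins rose from levels that were already high. Actb was at 364 and 368 CPM in FH and 2921 and 2386 CPM in BM 1D (2.86 ± 0.36, adjusted p = 0.000148), and Actg1 at 80.1 and 74.2 CPM and 945 and 1020.3 CPM (3.67 ± 0.35, adjusted p = 3.2e-05). Tagln2, an actin-binding protein, rose from 8.27 and 5.22 CPM to 186 and 160 CPM (4.68 ± 0.32), and tropomyosin Tpm4 from 13.8 and 13.3 CPM to 302 and 191 CPM (4.19 ± 0.50). Srf itself rose from 11.8 and 9.02 CPM to 44.1 and 43.3 CPM (2.07 ± 0.33, adjusted p = 0.000658). The LIM protein Fhl2 had no counts in FH and 14.3 and 6.2 CPM in BM 1D, which puts its lower library at least 26-fold higher against a floor of 3 counts per library in FH.

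The promoters of this list were searched for the letters that SRF binds. The CArG box, written here as CC and GG on either side of 6 bases that are each A or T, was searched on both strands in the 250 bases before the gene start in RefSeq's promoters for GRCm38.p6. It was found for 7 of the 18 list members with a promoter in that table (38.9%), against 1.39% of the promoters of all genes tested and 1.62% of all promoters of the table. The list was made of known SRF and MRTF targets, so this share describes the list and is no result of these data. The 4 stretches below are shown because their genes rose and carry the box, which stands in capitals with the bases around it in lower case, 5′ to 3′ on the gene's strand. None overlaps an exon of the GENCODE annotation. They come from chr17:46556210-46556269 (minus strand, Srf), chr11:120348551-120348610 (minus strand, Actg1), chr10:79988519-79988578 (plus strand, Cnn2) and chr14:20929148-20929205 (plus strand, Vcl).
Srf: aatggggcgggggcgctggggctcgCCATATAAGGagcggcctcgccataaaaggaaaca
Actg1: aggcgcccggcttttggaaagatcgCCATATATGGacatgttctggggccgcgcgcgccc
Cnn2: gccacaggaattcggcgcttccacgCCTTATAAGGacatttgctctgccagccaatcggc
Vcl: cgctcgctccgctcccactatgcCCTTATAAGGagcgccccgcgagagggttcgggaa
The stretch of Srf holds another box in lower case, ccataaaagg. Calponin Cnn2 was at 0.954 and 0.475 CPM in FH and 5.55 and 10.4 CPM in BM 1D (3.46 ± 0.70), and vinculin (Vcl), which reinforces the link from integrin to actin, at 69.3 and 65.8 CPM and 427 and 255 CPM (2.33 ± 0.32). Fhl2, given above, also carries the box and rose. Carrying the box did not go with a rise in every case, but the exceptions were barely expressed in either group. Myl9 and Fhl1, named here for their match and not for their values, also carry it and did not pass, with Myl9 at 0.239 and 0.158 CPM in FH and 0.0451 and 0.469 CPM in BM 1D and Fhl1 at 0.795 and 0.791 CPM and 0.226 and 0.781 CPM. Over all genes the box was in 1.73% of the promoters of genes that rose, 1.0% of those that fell and 1.39% of the others. A match describes the letters and does not show that SRF was bound.

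The rest of the cytoskeleton followed in the same direction. Of 13 tubulin genes 9 rose and 4 did not pass (median 4.21, and 3.64 at bounds). Tubb6 was at 2.39 and 1.27 CPM in FH and 313 and 294 CPM in BM 1D (7.37 ± 0.49, adjusted p = 7.55e-06) and lower at day 3, at 95.8 and 103 CPM (adjusted p = 0.0315). Tubb5 rose from 29.7 and 32.5 to 585 and 566 CPM (4.21 ± 0.43), and Tubb2a and Tuba1b by 4.90 ± 0.35 and 4.28 ± 0.37. Because tubulin genes are near-identical in parts of their sequence, reads can be split between them and single members are uncertain. Of 13 keratins and other intermediate filaments 8 rose, 1 fell and 4 did not pass (median 3.16). That median was 5.46 without FH library 1 and 2.48 without FH library 2, so its place among the lists rests on single libraries. Krt8 and Krt18, the keratin pair of hepatocytes, were at 198 and 210 CPM and 125 and 134 CPM in FH and at 4236 and 4102 CPM and 3266 and 3318 CPM in BM 1D (log2 fold changes 4.35 ± 0.47 and 4.67 ± 0.53). The 2 libraries of a group were nearly equal for both genes. Vimentin (Vim), a filament of mesenchymal cells, was at 3.26 and 2.93 CPM in FH and 232 and 233 CPM in BM 1D, and the nuclear lamin Lmna rose by 2.51 ± 0.29. Of 18 annexins and S100 proteins, calcium-dependent proteins of the inner membrane face, 10 rose, 2 fell and 6 did not pass (median 1.33). Anxa2 went from 1.91 and 2.77 CPM to 825 and 964 CPM (8.57 ± 1.09, adjusted p = 0.000155) and its partner S100a10 from 25.8 and 29.5 CPM to 219 and 277 CPM (3.17 ± 0.24). Without FH library 2, 6 annexin and S100 genes rose, and the median was 2.04 without BM 1D library 1 and 0.80 without BM 1D library 2.

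Genes of contacts between cells did not move together. Of 17 genes of adherens junctions, desmosomes and gap junctions 8 rose, 4 fell and 5 did not pass (median 0.58). The connexins of hepatocyte gap junctions fell. Gjb1 was at 793 and 778 CPM in FH and 22.9 and 43.6 CPM in BM 1D (-4.56 ± 0.48, adjusted p = 5.2e-05), and Gjb2 at 458 and 444 CPM and 32.8 and 25.3 CPM (-3.96 ± 0.48, adjusted p = 0.000117), with Gjb2 higher at day 3 (163 and 112 CPM, adjusted p = 0.0193). Hepatocytes carry both E-cadherin and N-cadherin, and the 2 took opposite directions. E-cadherin (Cdh1) rose from 93.4 and 92.4 CPM to 242 and 245 CPM (1.39 ± 0.25, adjusted p = 0.00141). N-cadherin (Cdh2) fell from 237 and 251 CPM to 91.3 and 97.3 CPM (-1.37 ± 0.31, adjusted p = 0.00486), a call that was lost on total counts (-0.45, adjusted p = 0.219). The desmosomal genes Dsp and Jup rose by 2.14 ± 0.43 and 1.38 ± 0.22. Of 18 tight junction genes 6 rose and 12 did not pass (median 0.51, and 0.37 at bounds), with the scaffold Cgn (35.6 and 31.6 CPM in FH, 108 and 154 CPM in BM 1D) among those that rose. Leaving out a library left 4 to 6 rises in the first list, fewest without either FH library, and 3 in the tight junction list without BM 1D library 2, FH library 1 or FH library 2. The tight junction median was 0.12 without BM 1D library 2.

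Among 29 genes of matrix and pericellular proteolysis 13 rose, 3 fell and 13 did not pass (median 1.33, and 1.12 at bounds), and 7 rose without FH library 1 or without FH library 2. Some that rose were close to absent from fresh cells. Thrombospondin 1 (Thbs1), a matrix protein of wounds, was at 0.318 and 0.317 CPM in FH and 111 and 72.2 CPM in BM 1D (293-fold higher, 95% interval 148 to 678, adjusted p = 5.72e-05). The urokinase receptor Plaur went from 0.398 and 0.158 CPM to 73.9 and 35.5 CPM (202-fold higher, 95% interval 97.8 to 503, adjusted p = 0.000225) and the laminin chain Lamc1 from 18.1 and 19.5 CPM to 195 and 153 CPM (3.21 ± 0.28). Col18a1, a basement membrane collagen that hepatocytes make, fell from 1402 and 1421 CPM to 162 and 401 CPM (-2.33 ± 0.47, adjusted p = 0.00266). The promoter of Plaur holds an AP-1 site, TGACTCA, 69 bases before the gene start (chr7:24462389-24462445, plus strand, GRCm38.p6), shown because AP-1 factors are described next and with the site in capitals.
Plaur: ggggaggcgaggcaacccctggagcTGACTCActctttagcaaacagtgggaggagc
TGACTCA or TGAGTCA was in 2 of 18 promoters of the matrix list (11.1%) and in 4.43% of the promoters of all genes tested, 5.31% of those that rose and 4.33% of those that fell.

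**Figure D2:**
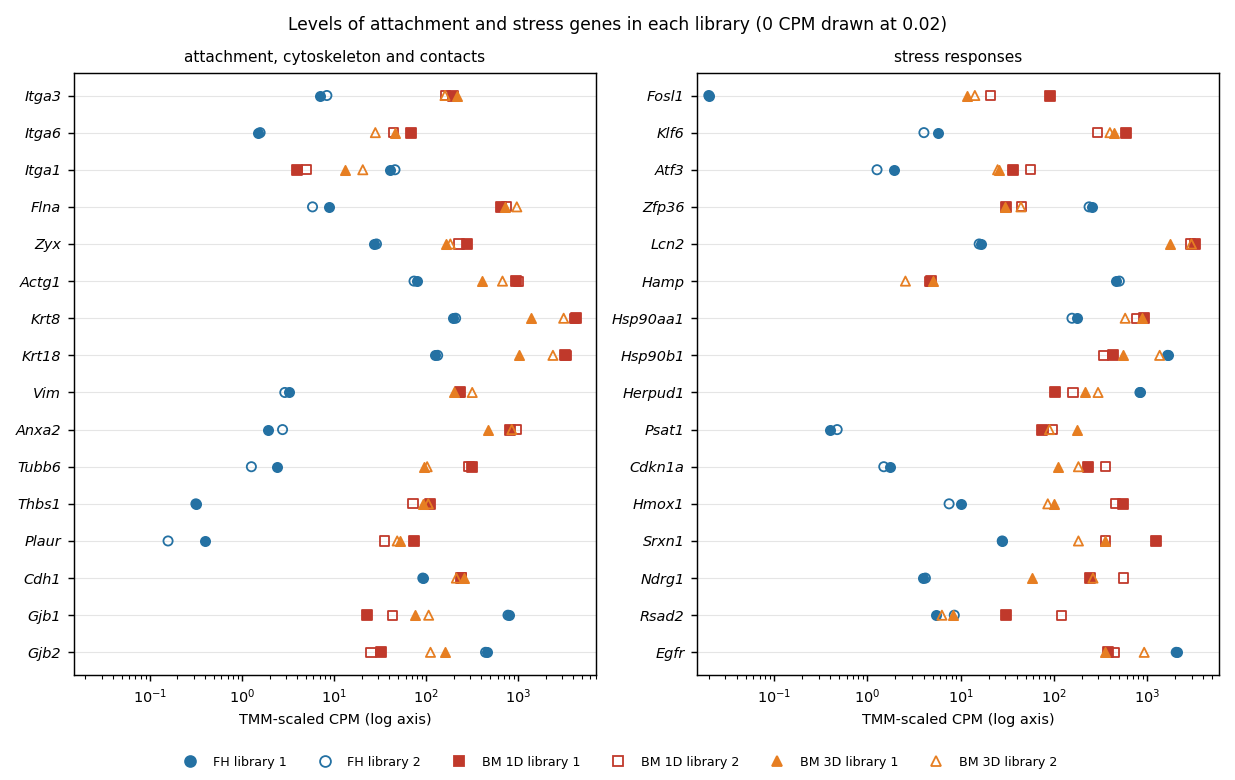
Levels of 32 attachment and stress genes in single libraries, as TMM-scaled CPM on a log axis, with values of 0 drawn at the left end; circles are FH, squares BM 1D and triangles BM 3D, filled for library 1 and open for library 2. Most genes were drawn because their groups do not overlap, which is therefore no result. Itga1, Gjb1, Gjb2, Zfp36, Hamp, Hsp90b1, Herpud1 and Egfr are the ones with BM 1D on the lower side.

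Immediate early genes code for transcription factors that a stimulus induces within minutes and that mostly decline again within hours. After 1 day more members of the list had risen than fallen. Of 25 members 13 rose, 3 fell and 9 did not pass (median 1.69). Fosl1, a late and stable member of the AP-1 family, had no counts in FH and 91.1 and 20.8 CPM in BM 1D, at least 87.5-fold higher in the lower library. Klf6 rose from 5.65 and 4.04 CPM to 593 and 293 CPM (6.51 ± 0.51, adjusted p = 1.31e-05) and Atf3 from 1.91 and 1.27 CPM to 36.7 and 56.4 CPM (4.87 ± 0.36, adjusted p = 1.04e-05). Atf3 was at 7.87 and 10.1 CPM in FH YAP-/-, with a log2 fold change of 2.38 against that reference. Zfp36, whose protein destabilises inflammatory mRNAs, fell from 254 and 238 CPM to 30.4 and 45 CPM (-2.71 ± 0.34, adjusted p = 0.00014). Egr1 was at 164 and 153 CPM in FH and 50.4 and 17.5 CPM in BM 1D (-2.22 ± 0.58, adjusted p = 0.0101), and this call was lost without BM 1D library 2 and on total counts (-1.30, adjusted p = 0.0667). Fresh cells thus already carried transcripts of several rapid-response genes.

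With TMM, NF-kB targets had more rises than falls and acute phase proteins more falls than rises. Of 25 NF-kB targets and chemokines 10 rose, 2 fell and 13 did not pass (median 1.57, and 1.18 at bounds), and on total counts 16 were higher and 0 lower. The monocyte attractant Ccl2 rose from 0.239 and 0.237 CPM to 26.3 and 15.5 CPM (89.3-fold higher, 95% interval 40.9 to 244, adjusted p = 0.000825), Nfkb2 from 5.25 and 4.51 CPM to 49.1 and 39.8 CPM (3.19 ± 0.34), and the feedback inhibitor Tnfaip3 from 2.23 and 3.88 CPM to 25.6 and 20.3 CPM (2.91 ± 0.56). Of 23 acute phase proteins 4 rose, 7 fell and 12 did not pass, with a median of -0.38 that became 0.54 on total counts, where 8 were higher and 5 lower. Lipocalin 2 (Lcn2), which binds bacterial siderophores, went from 16.6 and 15.8 CPM to 3257 and 2884 CPM (7.56 ± 1.46, adjusted p = 0.00195). Saa2 went from 13.5 and 17.1 CPM to 1017 and 658 CPM (5.77 ± 1.11) and was lower at day 3, at 81.1 and 10.5 CPM (adjusted p = 0.0413); Saa1 and Saa2 are close copies whose reads can be exchanged. Hepcidin (Hamp), the hormone that limits iron export, fell from 464 and 502 CPM to 4.78 and 4.69 CPM (-6.67 ± 0.79, adjusted p = 0.000101), and the constitutive serum amyloid Saa4 from 846 and 832 CPM to 34.3 and 22 CPM (-4.90 ± 0.51). The 4 named acute phase genes thus made large changes in both directions. Without BM 1D library 2 the list had 3 falls and a median of -0.14, and without any of the other libraries 2 rises.

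Chaperones of the cytosol and of the endoplasmic reticulum differed in their counts. Of 20 heat shock proteins 8 rose, 4 fell and 8 did not pass (median 0.62), and on total counts 14 were higher and 1 lower (median 1.54). Hsp90aa1, the inducible cytosolic HSP90, rose from 176 and 156 CPM to 915 and 776 CPM (2.35 ± 0.30, adjusted p = 0.000146). It stood at 522 and 572 CPM in FH YAP-/-, and with that reference the call was lost (0.63, adjusted p = 0.0973). The small chaperones Hspb1 and Cryab rose from 2.15 and 3.09 CPM and 1.03 and 1.27 CPM to 20.9 and 105 CPM and 10.4 and 18.8 CPM. Of 20 chaperones and unfolded protein response genes of the endoplasmic reticulum 10 fell, 0 rose and 10 did not pass, with a median of -1.0 that was -0.08 on total counts, where 3 were lower and 1 higher. Hsp90b1, the HSP90 of that compartment, fell from 1673 and 1656 CPM to 427 and 342 CPM (-2.11 ± 0.43, adjusted p = 0.00261) and Herpud1, a component of its degradation machinery, from 836 and 835 CPM to 102 and 160 CPM (-2.67 ± 0.37, adjusted p = 0.000266). Hspa5, the central sensor-binding chaperone, was at 888 and 877 CPM in FH and 784 and 747 CPM in BM 1D and did not pass (adjusted p = 0.695). Heat shock rises numbered 5 without BM 1D library 1 (median 0.38) and 4 without FH library 1, heat shock falls 1 without BM 1D library 2 or FH library 2 and 2 without FH library 1, and reticulum falls 6 without BM 1D library 2, FH library 1 or FH library 2. The difference between the lists was not tested.

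The integrated stress response, in which phosphorylated eIF2α favours translation of ATF4, an activator of genes for amino acid transport and synthesis, rose in most of its genes. Of 24 genes 19 rose, 1 fell and 4 did not pass (median 2.61). Psat1, an enzyme of serine synthesis, was at 0.398 and 0.475 CPM in FH and 74.9 and 97.3 CPM in BM 1D (7.60 ± 0.97, adjusted p = 0.000158). Asparagine synthetase (Asns) rose from 9.07 and 9.81 CPM to 52.9 and 81.4 CPM (2.83 ± 0.33, adjusted p = 0.000101) and the mitochondrial folate enzyme Mthfd2 from 0.477 and 0.791 CPM to 27.7 and 48.7 CPM (5.90 ± 0.72). Atf4 itself rose by 1.09 ± 0.21, from 103 and 102 CPM to 214 and 224 CPM (adjusted p = 0.00194). Slc7a11, the cystine importer, was at 0.0795 and 0.396 CPM in FH and at 578 and 44.3 CPM in BM 1D (1390.0-fold higher, 95% interval 637 to 3780.0, adjusted p = 0.00158); both cultured libraries were far above FH but stood far apart from each other. Cebpb, a partner of ATF4, was the member that fell, from 118 and 121 CPM to 31.4 and 17 CPM (-2.30 ± 0.29, adjusted p = 0.000142).

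The composite element that ATF4 binds with a C/EBP factor (TGATGCAA or TTGCATCA, both strands) was in 5 of the 22 list promoters that matched the RefSeq table (22.7%), against 0.678% over all genes tested. As with SRF, that share describes a list chosen by what is known of its genes. Among all genes it was not more frequent where levels rose (0.414%) than where they fell (0.83%) or did not pass (0.734%). Slc7a11 and Chac1, a glutathione-degrading enzyme, are shown because both hold the element and only Slc7a11 rose; the element is in capitals. They come from chr3:50443647-50443704 (minus strand) and chr2:119351024-119351081 (plus strand) of GRCm38.p6, and neither overlaps an annotated exon.
Slc7a11: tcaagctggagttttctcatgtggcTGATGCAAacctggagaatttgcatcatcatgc
Chac1: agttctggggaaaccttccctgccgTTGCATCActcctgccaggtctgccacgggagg
A second copy in Slc7a11, ttgcatca, lies in the same stretch in lower case. Chac1, named for the match, was at 8.99 and 6.57 CPM in FH and 10.8 and 12.9 CPM in BM 1D and did not pass (adjusted p = 0.571).

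Targets of p53, the transcription factor of DNA damage and other stresses, gave 13 rises, 2 falls and 6 that did not pass among 21 (median 1.75). Cdkn1a, the cell cycle inhibitor p21, was at 1.75 and 1.5 CPM in FH and 231 and 357 CPM in BM 1D (7.49 ± 0.53, adjusted p = 8.49e-06). It stood at 26.8 and 26.9 CPM in FH YAP-/-, and with that reference its log2 fold change was 3.45. The receptors Eda2r and Tnfrsf10b rose from under 1 CPM to 14.4 and 24.5 CPM and 23.9 and 20.6 CPM, and the pore-forming apoptosis gene Bax from 7.16 and 9.5 CPM to 39.4 and 68.8 CPM (2.70 ± 0.50). Eda2r was at 6.97 and 7.2 CPM in FH YAP-/-, with a log2 fold change of 1.45 against that reference. The death receptor Fas fell from 19.4 and 19.5 CPM to 4.56 and 3.7 CPM (-2.24 ± 0.28, adjusted p = 0.000134). Targets of NRF2, which answers oxidants and electrophiles, gave 13 rises and 7 that did not pass among 20 (median 2.14). Heme oxygenase (Hmox1) rose from 10 and 7.52 CPM to 549 and 457 CPM (5.84 ± 0.53, adjusted p = 2.76e-05) and was at 100 and 85.9 CPM at day 3 (adjusted p = 0.0142). Sulfiredoxin (Srxn1) rose from 27.8 and 27.9 CPM to 1242 and 358 CPM (4.84 ± 0.75). The pentose phosphate enzymes Pgd and G6pdx, which make NADPH, rose from 41.9 and 34.7 CPM and 3.58 and 2.61 CPM to 712 and 387 CPM and 24.9 and 35.7 CPM. Of 19 NRF2 members with at least 1 CPM in BM 1D, 8 were at least 2-fold higher in library 1 and 0 in library 2. With a library left out, 9 to 13 NRF2 targets rose, and on total counts all 20 were higher.

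Hypoxia-response genes were the list on which the 2 BM 1D libraries differed most. Of 19 members 12 rose and 7 did not pass (median 2.31, and 1.62 without BM 1D library 2). Their summed level was 1180 and 1180 CPM in FH and 1410 and 3670 CPM in BM 1D. Ndrg1 was at 3.98 and 4.19 CPM in FH and 246 and 560 CPM in BM 1D (6.62 ± 0.88, adjusted p = 0.000199). The vasodilator peptide adrenomedullin (Adm) was at 0.159 and 0.158 CPM and 25.7 and 52.4 CPM (240-fold higher, 95% interval 93.7 to 883, adjusted p = 0.000753), and the collagen prolyl hydroxylase P4ha2 at 9.38 and 8.78 CPM and 101 and 206 CPM (4.08 ± 0.47, adjusted p = 8.93e-05). In all 3 the second library was about 2-fold above the first, and both were above FH. Of 18 members with at least 1 CPM in BM 1D, 15 were at least 2-fold higher in library 2 and 0 in library 1. At day 3, 3 members were lower than at day 1 and 0 higher. Leaving out a library at a time left 9 to 13 rises.

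**Figure D3:**
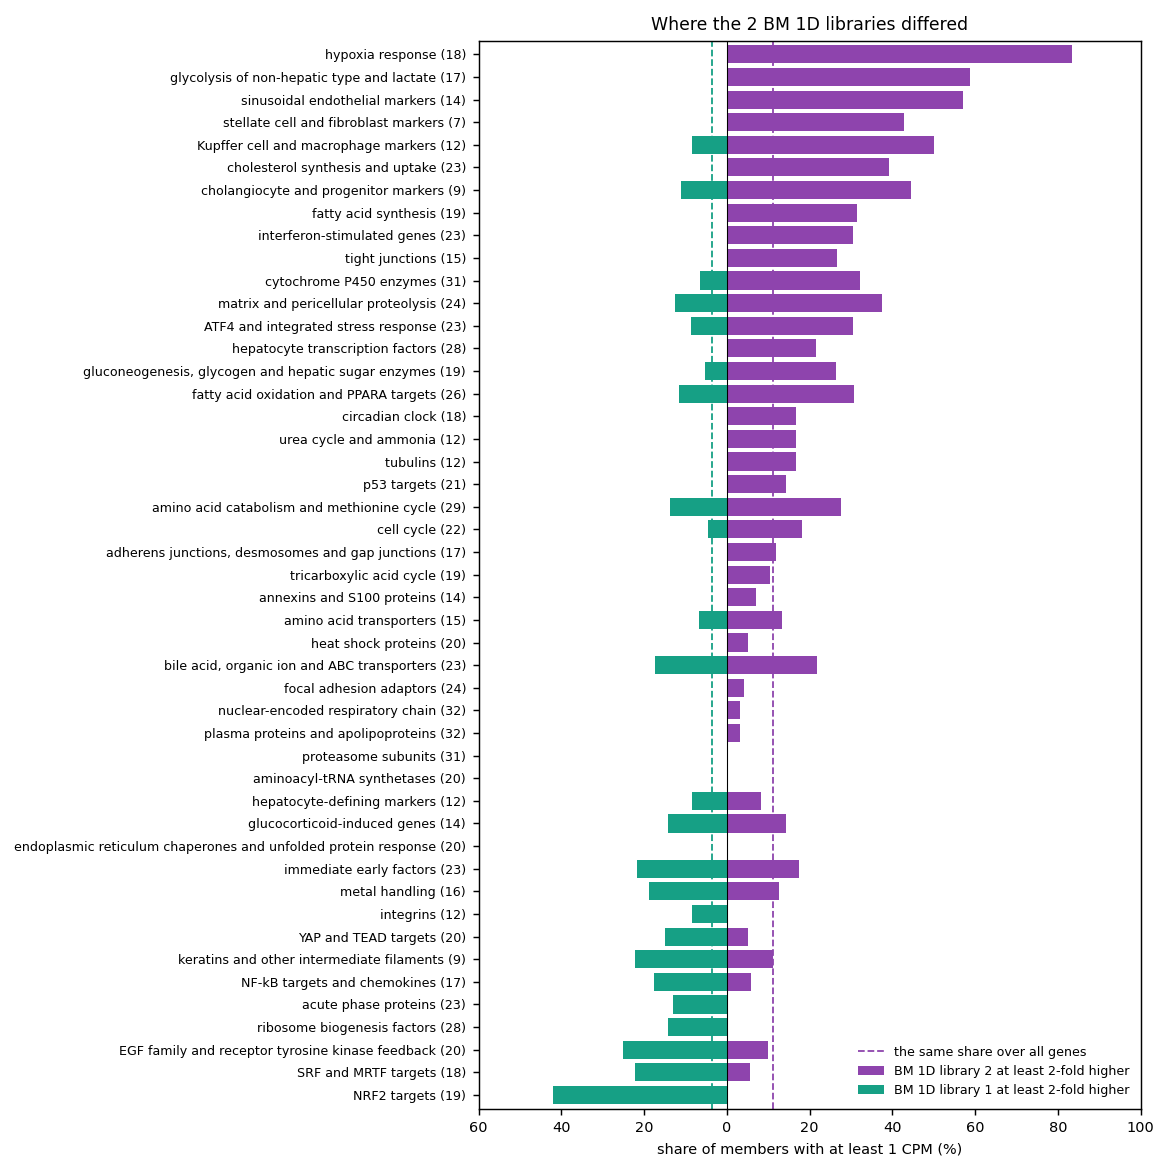
For each list, the bars give the share of members with at least 1 CPM in BM 1D that differed by at least 2-fold between its 2 libraries, to the right for higher in library 2 and to the left for higher in library 1; dashed lines give these shares over all genes and numbers in brackets the members counted. Hypoxia (15 of 18) and non-hepatic glycolysis (10 of 17) lie furthest to the right, and NRF2 targets (8 of 19) lie to the left.

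Interferon-stimulated genes, antiviral effectors, gave 17 rises and 6 that did not pass among 23 (median 1.65). Rsad2 was at 5.49 and 8.55 CPM in FH and 30.7 and 121 CPM in BM 1D (3.43 ± 0.57, adjusted p = 0.000772), Xaf1 at 2.78 and 3.01 CPM and 26.6 and 23.7 CPM (3.12 ± 0.45, adjusted p = 0.000339), and Cmpk2 at 2.23 and 2.45 CPM and 19.8 and 20.4 CPM (3.10 ± 0.56, adjusted p = 0.0013). Against BM 1D, 10 members were lower and 1 higher at day 3, where 1.6% of all genes were lower. Rsad2 was then at 8.22 and 6.3 CPM (adjusted p = 0.00958) and Xaf1 at 5.79 and 4.43 CPM (adjusted p = 0.0151). With 1 library left out of the first comparison 12 to 15 rose, and the median was 1.04 without BM 1D library 2. Kupffer cell markers, given above, were at least 2-fold higher in BM 1D library 2 than in library 1 for 6 of 12 members and at least 2-fold lower for 1, and their part in these values was not tested.

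The EGF pathway, a main mitogenic route of hepatocytes, gave 10 rises, 3 falls and 8 that did not pass among 21 (median 0.92, and 0.54 without BM 1D library 1). The ligands named here rose and the receptors fell. The ligand Hbegf rose from 0.159 and 0.158 CPM to 15.9 and 6.51 CPM (72.7-fold higher, 95% interval 28.2 to 268, adjusted p = 0.000214) and betacellulin (Btc) from 1.91 and 2.22 CPM to 26.9 and 31.3 CPM (3.81 ± 0.59, adjusted p = 0.000482). The receptor Egfr fell from 2091 and 2044 CPM to 377 and 449 CPM (-2.32 ± 0.55, adjusted p = 0.00621) and its partner Erbb3 from 190 and 183 CPM to 41 and 76.4 CPM (-1.67 ± 0.34, adjusted p = 0.00269), a call lost on total counts (-0.74, adjusted p = 0.0616). Both receptor calls were lost with FH YAP-/- as the fresh reference, where Egfr stood at 661 and 669 CPM (-0.69, adjusted p = 0.318) and Erbb3 at 93 and 96.9 CPM (-0.69, adjusted p = 0.119). Of 15 glucocorticoid-induced genes 5 rose, 6 fell and 4 did not pass, with a median of -0.71 that turned to 0.20 on total counts, where 6 were higher and 2 lower, and without BM 1D library 1 it had 3 falls. Tat, a tyrosine-degrading enzyme that glucocorticoids induce in liver, fell from 3979 and 3961 CPM to 109 and 46.9 CPM (-5.67 ± 0.68, adjusted p = 0.000112), while the kinase Sgk1 rose from 10.9 and 11.9 CPM to 70.5 and 164 CPM (3.37 ± 0.78, adjusted p = 0.00557).

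Genes for making ribosomes and charging tRNA rose together. Of 28 ribosome biogenesis factors 21 rose, 0 fell and 7 did not pass (median 1.20), and of 20 aminoacyl-tRNA synthetases 11 rose, 0 fell and 9 did not pass (median 0.84), with 28 and 19 higher on total counts. Nucleophosmin (Npm1) rose from 198 and 188 CPM to 1165 and 669 CPM (2.25 ± 0.47, adjusted p = 0.0031), and Rrp12, which exports ribosomal subunits, from 13 and 11.9 CPM to 48.3 and 47.3 CPM (1.94 ± 0.26, adjusted p = 0.000219). The glycine synthetase Gars rose from 62.6 and 60 CPM to 300 and 400 CPM (2.51 ± 0.50). Leaving out BM 1D library 1, FH library 1 or FH library 2 left 12 to 13 rises among the ribosome biogenesis factors, and leaving out BM 1D library 2 gave 24. Most proteasome subunits did not pass, with 6 rises, 1 fall and 24 that did not pass among 31, and their median of 0.24 stood near the 0.17 of all genes. On total counts 29 of them were higher, and with BM 1D library 1, FH library 1 or FH library 2 left out 3 to 4 rose. That median was 0.15 without BM 1D library 1 and 0.37 without BM 1D library 2. Psmd8 was the one with the largest rise, from 142 and 138 CPM to 559 and 643 CPM (2.10 ± 0.25).

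Transcripts of sugar metabolism were exchanged. Of 19 genes of gluconeogenesis, glycogen and hepatic sugar enzymes 15 fell, 1 rose and 3 did not pass (median -2.32, and -3.54 without BM 1D library 2), and of 19 genes of non-hepatic glycolysis and lactate 15 rose, 2 fell and 2 did not pass (median 2.15, and 2.09 at bounds). Pck1, which commits oxaloacetate to glucose, held 6426 and 6275 CPM in FH and 12.3 and 11.1 CPM in BM 1D. Glycogen synthase of liver (Gys2) fell from 726 and 741 CPM to 5.33 and 8.96 CPM (-6.68 ± 1.01, adjusted p = 0.000418) and the gluconeogenic phosphatase Fbp1 from 1040.3 and 1084 CPM to 87.3 and 67 CPM (-3.78 ± 0.64, adjusted p = 0.000851). The glucose transporters changed places. Slc2a2, the low-affinity carrier of hepatocytes, fell from 659 and 656 CPM to 6.91 and 34.3 CPM (-5.00 ± 0.85, adjusted p = 0.000913), and Slc2a1, the carrier of most other cells, rose from 12.6 and 11.2 CPM to 70.5 and 190 CPM (3.45 ± 0.45, adjusted p = 0.000175). In the same way the muscle-type pyruvate kinase Pkm rose from 3.98 and 4.35 CPM to 425 and 692 CPM (7.07 ± 0.44, adjusted p = 7.55e-06), the hexokinase Hk1 from 1.03 and 0.871 CPM to 22.6 and 59.7 CPM (5.42 ± 0.63), and the lactate exporter Slc16a3 from 0.0795 and 0.0791 CPM to 16.8 and 141 CPM (941-fold higher, 95% interval 260 to 7780.0, adjusted p = 0.00414). Of 17 glycolytic genes with at least 1 CPM in BM 1D, 10 were at least 2-fold higher in library 2, as most hypoxia genes were. The glycolysis and hypoxia lists share members, among them Hk2 and Slc2a1. With a library left out, 11 to 15 of the list rose.

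Genes for the burning of fat fell in most cases. Of 26 genes of fatty acid oxidation and PPARA targets 22 fell, 1 rose and 3 did not pass (median -3.02), with their summed level going from 24100 and 23900 CPM in FH to 1500 and 2330 CPM in BM 1D. Bdh1, which interconverts ketone bodies, fell from 265 and 259 CPM to 0.812 and 2.5 CPM (-7.32 ± 0.84, adjusted p = 8.67e-05). Cpt1a, which admits fatty acids to mitochondria, fell from 1247 and 1223 CPM to 52 and 62.5 CPM (-4.43 ± 0.39, adjusted p = 2.46e-05). Cpt1a was higher again at day 3, at 180 and 120 CPM (adjusted p = 0.0454), still below FH. Of 19 fatty acid synthesis genes 10 fell, 3 rose and 6 did not pass (median -1.45). On total counts that median was -0.53, with 8 lower and 4 higher. Thrsp, a lipogenic regulator of liver, fell from 652 and 671 CPM to 22.1 and 26.9 CPM (-4.75 ± 0.61, adjusted p = 0.000159), whereas Scd2, the desaturase of other tissues, rose from 2.94 and 0.871 CPM to 8.98 and 35.7 CPM (3.55 ± 0.65, adjusted p = 0.00147) and to 198 and 181 CPM at day 3 (adjusted p = 0.018). Cholesterol synthesis and uptake had 2 rises, 7 falls and 14 that did not pass among 23, and its median of -0.42 was 0.51 on total counts, where 8 were higher and 3 lower. Without BM 1D library 1 it had 4 rises, 3 falls and a median of 0.08, without BM 1D library 2 its median was -1.16, and without FH library 2 it had 4 falls.

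Transcripts of nitrogen metabolism fell furthest. All but 1 of 12 genes of the urea cycle and ammonia handling fell (median -3.69), and 27 of 29 genes of amino acid catabolism and the methionine cycle fell with 2 not passing (median -4.94), the lowest median of the lists given here. Cps1, the first enzyme of the urea cycle, was at 13502 and 13421 CPM in FH and 208 and 313 CPM in BM 1D (-5.69 ± 0.94, adjusted p = 0.000736) and at 1688 and 3783 CPM at day 3 (adjusted p = 0.0426). Glul, the glutamine synthetase of hepatocytes around the central vein, fell from 2322 and 2129.5 CPM to 58.8 and 51.5 CPM (-5.33 ± 0.36, adjusted p = 7.55e-06). Mat1a, which makes the methyl donor of the cell, fell from 5046 and 4966 CPM to 60.8 and 73.5 CPM (-6.22 ± 1.10, adjusted p = 0.00117), Hgd, an enzyme of tyrosine breakdown, from 855 and 866 CPM to 14.9 and 10.4 CPM (-6.08 ± 0.65) and Tdo2, which opens tryptophan breakdown, from 3157 and 3144 CPM to 73 and 34.1 CPM (-5.88 ± 0.89). Amino acid transporters were split, with 8 rises, 7 falls and 2 that did not pass among 17. Their median of 1.56 rests on single genes and libraries, as it was 0.21 at bounds and 0.28 without BM 1D library 2. Slc38a3, the glutamine carrier of hepatocytes, fell from 3067 and 2937 CPM to 50.1 and 91.7 CPM (-5.40 ± 0.58, adjusted p = 5.96e-05), while the cationic amino acid carrier Slc7a1 rose from 0.318 and 0.0791 CPM to 25.5 and 14.2 CPM (102-fold higher, 95% interval 43.6 to 315, adjusted p = 0.000197).

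Mitochondrial genes fell by less, and most members passed. Of 32 nuclear-encoded subunits of the respiratory chain 26 fell, 0 rose and 6 did not pass, and of 19 genes of the tricarboxylic acid cycle 17 fell, 0 rose and 2 did not pass (medians -1.29 and -1.33). Sdha, a subunit of complex II that also serves the cycle, was at 923 and 890 CPM in FH and 235 and 235 CPM in BM 1D (-1.95 ± 0.28, adjusted p = 0.000286) and Mdh1 at 799 and 824 CPM and 88.5 and 123 CPM (-2.94 ± 0.46, adjusted p = 0.000528). These changes were close in size to the shift between scalings. On total counts the respiratory chain median was -0.36, with 6 of 32 lower and 1 higher, and that of the cycle was -0.40, with 7 of 19 lower and 2 higher. With a library left out, 17 to 22 respiratory chain genes were lower, fewest without BM 1D library 1.

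**Figure D4:**
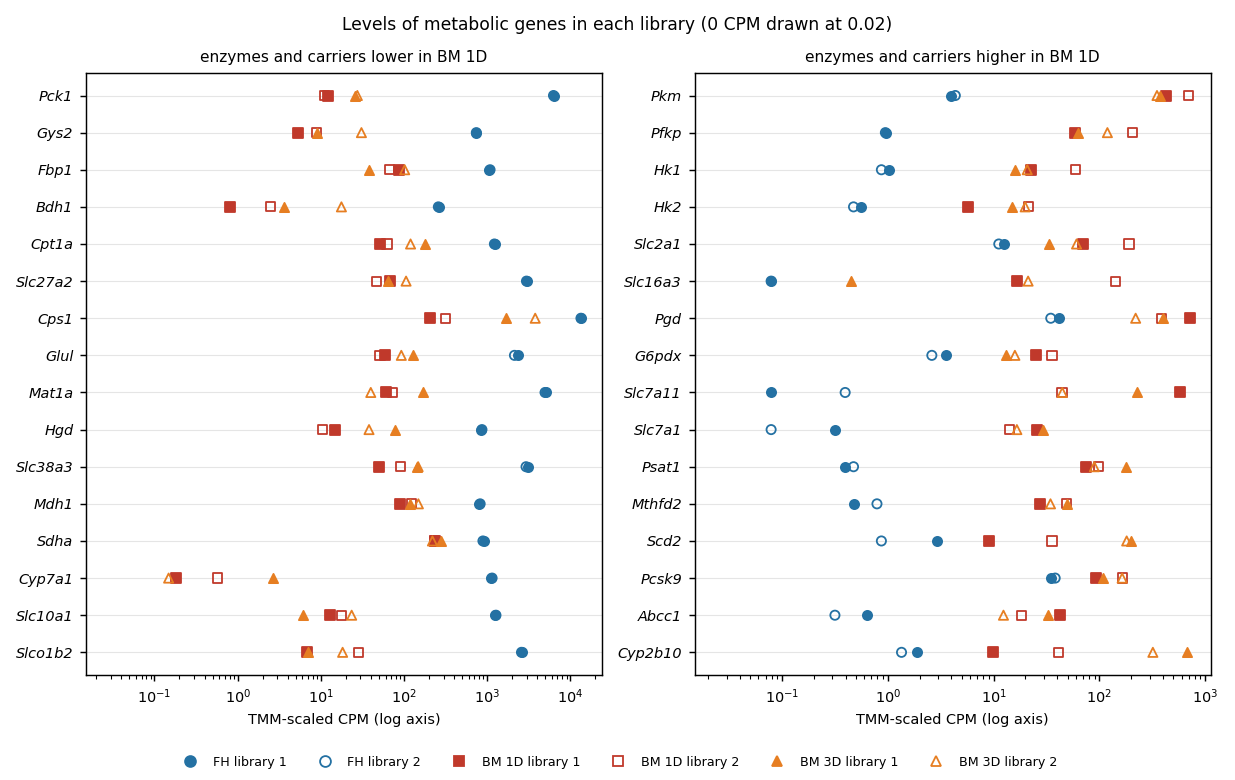
Levels of 32 metabolic enzymes and carriers in single libraries, as TMM-scaled CPM on a log axis; circles are FH, squares BM 1D and triangles BM 3D, filled for library 1 and open for library 2. The left panel holds genes that are high in FH and the right panel genes that are high in BM 1D.

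Transcripts for specialised liver functions fell with those of the enzymes above. Of 34 cytochrome P450 genes, which oxidise drugs, steroids and bile acid precursors, 22 fell, 1 rose and 11 did not pass (median -2.88), and their summed level went from 47600 and 48700 CPM in FH to 3710 and 5560 CPM in BM 1D. Without BM 1D library 1, 12 fell. Cyp7a1, the rate-limiting enzyme of bile acid synthesis, fell from 1109.8 and 1147 CPM to 0.181 and 0.573 CPM (-11.56 ± 1.68, adjusted p = 0.000336). Cyp8b1, which directs bile acids toward cholic acid, fell from 391 and 375 CPM to 2.8 and 1.35 CPM (-7.51 ± 1.28, adjusted p = 0.0009). Cyp2b10, a drug-inducible member whose close copies can share its reads, was the one that rose, from 1.91 and 1.35 CPM to 9.93 and 41 CPM (3.96 ± 0.79, adjusted p = 0.00235) and to 679 and 320 CPM at day 3 (adjusted p = 0.0127). Its first-day call was lost against FH YAP-/-, where it stood at 14.8 and 13.3 CPM (0.86, adjusted p = 0.33). Of 23 transporters of bile acids, organic ions and lipids 16 fell, 3 rose and 4 did not pass (median -3.46). Slc10a1, the bile acid importer of the sinusoidal face, fell from 1249 and 1276 CPM to 13 and 17.6 CPM (-6.37 ± 1.06, adjusted p = 0.000802), and Abcc1, an export pump that is low in healthy hepatocytes, rose from 0.636 and 0.317 CPM to 42 and 18.4 CPM (5.97 ± 0.81, adjusted p = 0.000217). Plasma proteins fell in 22 of 32 with 10 not passing (median -2.21), from F5, a clotting factor (2581 and 2577 CPM in FH, 170 and 171 CPM in BM 1D), to Apoa5 (1355 and 1399.9 CPM and 25.7 and 40.1 CPM). Leaving out any 1 of the 4 libraries left 11 to 13 falls among plasma proteins, and on total counts 12 were lower and 1 higher (median -1.28).

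The transcription factors of hepatocytes changed to very different degrees. Of 29 members 21 fell, 1 rose and 7 did not pass (median -2.0). The xenobiotic receptor Nr1i3 was at 276 and 249 CPM in FH and 1.53 and 1.98 CPM in BM 1D (-7.22 ± 0.86, adjusted p = 0.000108). Klf15, a regulator of amino acid breakdown, fell from 263 and 262 CPM to 6.68 and 11.6 CPM (-4.85 ± 0.54, adjusted p = 7.55e-05), the bile acid receptor Nr1h4 from 311 and 311 CPM to 26.2 and 18.9 CPM (-3.79 ± 0.45, adjusted p = 0.000109) and the fatty acid receptor Ppara from 713 and 717 CPM to 66.2 and 52.8 CPM (-3.59 ± 0.60, adjusted p = 0.000791). Hnf4a, the central factor of hepatocyte identity, fell far less, from 1065 and 1057 CPM to 436 and 292 CPM (-1.54 ± 0.32, adjusted p = 0.00279), and on total counts its call was lost (-0.62, adjusted p = 0.0715). Of 18 clock genes 8 fell, 2 rose and 8 did not pass, with a median of -0.87 that was 0.05 on total counts (8 higher, 5 lower) and -0.52 without BM 1D library 1. Dbp, an output of the clock, fell from 130 and 134 CPM to 2.89 and 2.34 CPM (-5.65 ± 0.69, adjusted p = 0.000117) and Per3 from 93.7 and 95 CPM to 7.13 and 6.04 CPM (-3.84 ± 0.31, adjusted p = 1.59e-05), while Arntl, the activator that peaks in antiphase to them in liver, rose from 1.43 and 2.22 CPM to 17 and 16.3 CPM (3.18 ± 0.37, adjusted p = 9.84e-05).

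Targets of YAP and TEAD, which the series is about, rose in 13 of 22, with 1 fall and 8 that did not pass (median 2.48), and 8 rose without FH library 2. This list and that of SRF and MRTF targets share members that rose, among them Ctgf and Cyr61, so their rises are partly the same genes. Ptpn14 was at 0.795 and 0.475 CPM in FH and 103 and 52.2 CPM in BM 1D (6.92 ± 0.85, adjusted p = 0.000125), Ajuba, a scaffold of the Hippo pathway and of cell junctions, at 5.73 and 4.27 CPM and 104 and 69.9 CPM (4.12 ± 0.37, adjusted p = 2.76e-05), and the DNA-binding partner Tead1 at 12.4 and 11.7 CPM and 140 and 88.7 CPM (3.25 ± 0.41, adjusted p = 0.000149). Of 29 cell cycle genes 10 rose, 2 fell and 17 did not pass (median 0.94), with 18 higher and 1 lower on total counts. The 2 that fell were Ccnd1 and Birc5, and the rises named here were of the licensing machinery that prepares DNA for replication. Mcm2 rose from 1.27 and 0.871 CPM to 30.5 and 19.7 CPM (4.54 ± 0.54, adjusted p = 0.000104) and Mcm6 from 4.69 and 4.59 CPM to 89.9 and 70.6 CPM (4.11 ± 0.61, adjusted p = 0.000378). At day 3, 9 cell cycle genes were higher than at day 1 and 0 lower. Cholangiocyte and progenitor markers had 6 rises and 1 fall among 11 tested (median 2.82), among them Sox9 (3.66 and 3.01 CPM in FH, 45.7 and 38.9 CPM in BM 1D), and 3 to 5 rose with a library left out, fewest without FH library 2. The defining biliary keratin Krt7 stayed under 1 CPM in all 4 libraries, and Krt19 was at 0.271 and 14.4 CPM in BM 1D.

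The genes with the largest changes over all those tested were not all members of the lists. Among those with no counts in either FH library, filamin C (Flnc), a filamin of muscle, was at 62 and 27 CPM in BM 1D (at least 113-fold higher in the lower library), the transcription factor Creb5 at 29.8 and 38.7 CPM (at least 125-fold, again for the lower library) and the protease-activated receptor F2rl1 at 7.9 and 47.4 CPM (at least 33.2-fold in library 1). Placental growth factor (Pgf) was at 11.5 and 22.3 CPM, at least 48.2-fold higher in its lower library. Among the largest falls, the uridine-cleaving enzyme Upp2 went from 2272 and 2231 CPM to 5.87 and 5.99 CPM (-8.57 ± 0.99, adjusted p = 8.96e-05), the peroxisomal thioesterase Acot3 from 71.4 and 66.2 CPM to 0.271 and 0.0521 CPM (406-fold lower, 95% interval 197 to 1010.0, adjusted p = 5.91e-06) and Nrep from 130 and 125 CPM to 0.271 and 0.417 CPM (-8.52 ± 0.32, adjusted p = 3.88e-07). The desmosomal cadherin Dsg1c fell from 36.5 and 37 CPM to 0.0903 and 0.104 CPM (380-fold lower, 95% interval 148 to 1400.0, adjusted p = 7.67e-05), against the rise of Dsp and Jup. With fresh YAP-/- hepatocytes as the reference in place of FH, 5013 of the 6170 genes that had passed were called in the same direction. Among the list medians that this reference moved were those of heat shock proteins (-0.02), amino acid transporters (-0.04), tight junctions (0.01), integrins (1.11), p53 targets (0.97), glucocorticoid-induced genes (-0.12), cholesterol synthesis (-1.40), fatty acid synthesis (-2.40), Kupffer cell markers (-2.12) and endothelial markers (-0.05).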

How the data were processed

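Raw counts of each gene in 14 libraries, and FPKM values beside them, were deposited by the authors. Per the labels' protocols, RNA was extracted with RNeasy kits and libraries were made with a TruSeq Stranded mRNA kit and sequenced in pairs on an Illumina HiSeq4000. The submitters' processing notes name GRCm38.p6 as the build and HISAT2, HTSeq, Cufflinks, DESeq and Trimmomatic as tools. With the strand setting of the counting not given in the sources used here, overlapping genes on opposite strands and close paralogs are uncertain. Of 21878 genes, 4326 had no counts in any library, and 27 symbols altered by a spreadsheet were restored from NCBI gene IDs.

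Counts were fitted in edgeR 4.0.16 (R 4.3.3): filterByExpr on group left 14100 genes, TMM scaling was used, and all 14 libraries entered 1 quasi-likelihood model of group means with no replicate term. Calls were made at a Benjamini-Hochberg adjusted p of 0.05. Each SE was the log2 fold change over the root of its F statistic, and genes without counts in FH were set to 3 counts per library, a floor of 0.239 and 0.237 CPM, which covers counting error only. Genes with 1 to 10 counts in a group were given as ratios of summed counts per effective library size with exact conditional binomial intervals.

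The 49 gene lists, the comparison and the tests were chosen with earlier results of these data known. Lists were described by counts and medians, without a set test. Some lists share members, so their counts are not independent. Slc7a11, for example, is in the lists of the integrated stress response, NRF2 targets and amino acid transporters. Genes could be named if they were among the 6 largest called changes of a list with at least 10 CPM and no overlap between groups, among up to 4 members called against their list, among the 2 most abundant that did not pass, or among the 12 largest rises or falls over all genes. Genes whose call held with each library left out were preferred. Actb, Actg1, Asns, Atf4, Hnf4a, Krt7 and Krt19 lie outside this rule and were chosen after their values were seen; Srf, Cnn2, Vcl, Myl9, Fhl1 and Chac1 were named for their promoters. Promoters came from RefSeq for GRCm38.p6, and 11214 of the 14100 genes matched. The test was checked on simulated counts with known changes, in which BM 1D kept the FH mean for most genes. In the data 43.8% of genes were called, so that check cannot speak for the scaling or the error rate here. Alternatives were DESeq2 1.42.0, its size factors, total counts, no filter, the compared groups alone, a replicate block, a fold limit, limma 3.58.1 on log2 FPKM, removal of the 20 most abundant genes, the YAP-/- reference and each library left out. Mitochondrially encoded genes were not analysed here. A few members of the lists are left unreported by name. Figures were drawn with matplotlib 3.10.9.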

Additional observations from a re-analysis of the deposited data

How the results depend on the processing

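For BM 1D against FH, 6170 genes were called (3328 higher, 2842 lower). A limit of 1 on the log2 fold change left 2824 (1409 higher, 1415 lower). Total counts gave 7064 higher and 1351 lower, log2(FPKM + 1) 5724 and 1443, and log2(FPKM + 0.1) 6071 and 1473. The cause of these splits was not tested beyond the median shift between scalings. Leaving out 1 library gave 3842 to 5255 calls, 1844 to 2781 higher and 1998 to 2474 lower, with 3919 calls without FH library 1 and 3842 without FH library 2. With a replicate block 6531 genes were called, 6084 of them among the 6170 and in the same direction. DESeq2 size factors, no filter, the 2 groups alone, removal of abundant genes and the YAP-/- reference gave 5894 to 6163 calls and the DESeq2 Wald test 6604.

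For BM 3D against BM 1D, 742 genes were called, 1736 by the DESeq2 Wald test, 133 with the fold limit, 0 on these groups alone and 896 with the replicate block. Leaving out 1 library gave 178 to 588, with 178 without BM 1D library 1 and 404 without BM 3D library 1; the cause was not tested. Of the 11 genes given with day 3 levels, Rsad2 alone kept its day 3 call with each library left out. The replicate numbers come from the labels, which do not say that they pair libraries, and deviations of same-numbered libraries correlated at -0.005 between BM 1D and FH and at 0.461 between BM 1D and BM 3D. With the replicate block the day 3 calls of Cps1 and Cpt1a had adjusted p-values of 0.0511 and 0.0522 in edgeR's quasi-likelihood test, and 5 hypoxia genes were lower at day 3 in place of 3.

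The FH libraries differed less (chi-square per degree of freedom 5.49) than the BM 1D libraries (98), while the model uses 1 spread per gene for all groups. Low genes are limited by depth: with 3 counts as the floor, levels under 0.239 CPM in FH cannot be ordered.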

Other observations

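Genes of metal handling were split on the first day. Of 16 members 2 rose, 4 fell and 10 did not pass, with a median log2 fold change of -0.22 that was 0.71 on total counts (7 higher, 2 lower) and 0.03 without BM 1D library 2. Transferrin receptor 2 (Tfr2), the iron sensor upstream of hepcidin, was at 528 and 511 CPM in FH and 79.9 and 127 CPM in BM 1D, a log2 fold change of -2.33 ± 0.51 (SE, edgeR's quasi-likelihood test, adjusted p = 0.00376). It fell beside hepcidin itself.

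The 250 bases before the start of genes that rose had a median GC content of 60.5%, against 58.4% for genes that fell and 59.2% for the others. The observed over expected ratio of CpG was 0.718, 0.637 and 0.697. The antioxidant response element, searched as TGAC and GC with any 3 bases between and on both strands, was in 5 of 17 promoters of the NRF2 list (29.4%) and in 13.8% of all genes tested. The E-box CACGTG was in 5 of 15 clock promoters (33.3%) and in 9.49% of all genes tested. The NRF2 and clock lists were chosen by what is known of their genes, so these shares describe the lists and are no result of these data.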
